A study of Mus musculus with 8 samples.

Results

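The genes described here are 50 that proliferating cells use to copy and divide their chromosomes, taken by symbol from the 23284 gene symbols counted in 8 RNA-sequencing libraries of mouse ID8 IP2 cells. They were handled as 25 replication genes and 25 mitosis genes. All 50 were found, and all 50 passed the expression filter that left 12430 genes for testing. ID8 IP2 is a mouse ovarian cancer line derived from ovarian surface epithelium by passage of the parental ID8 line through mice. Notch3IC lines stably express the part of Notch3 inside the cell, codons 1664 to 2318, which signals without ligand. This insert has an HA tag and was brought in by a pCCL lentivirus, with GFP made from the same transcript through an IRES. Control lines carried the empty pCCL vector. Each of Sets 1 to 4 is a separate infection that gave 1 Control and 1 Notch3IC line, so there were 4 lines per condition, all cultured in vitro. By the study's methods ID8 IP2 cells also carried a luciferase and mCherry reporter. From tests made afterwards, the study proposes that mycoplasma was present in all its ID8 IP2 lines during the experiments. Whether a line was a pool or a clone is not given in the sources used here. Each line gave 1 library, so p-values measure the spread between these 4 lines. Between 15524262 and 28208072 reads were counted per library, and the lowest raw count of any of the 50 genes in any library was 336. The question was how the RNA of the replication and mitosis genes compared between Notch3IC and Control lines, over all sets and within each set.

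DNA replication starts when origins are licensed with the MCM helicase in G1, which Cdc6 and Cdt1 help to load, and the helicase is switched on in S phase with Cdc45 and the GINS complex. Most genes for these steps are transcribed late in G1 by E2F factors, which the retinoblastoma protein holds in check. Genes for spindle assembly, the spindle checkpoint and cytokinesis are transcribed later, in G2 and M phase, through Foxm1, B-Myb and the DREAM complex, which acts at CHR elements in their promoters. Because both groups are used mainly by dividing cells, their RNA is widely read as a measure of proliferation, with Mki67 and Pcna the usual markers.

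A pair of promoter stretches from each group is printed, chosen to show the letters these promoters are known for. Of the 50 genes, 20 replication and 20 mitosis genes have a window in the RefSeq promoter table (build GRCm38.p6), which runs from 250 bases before the transcription start to 50 after it. Each window was searched on both strands for the E2F letters TTTCCCGC, TTTCGCGC, TTTGCCGC and TTTGGCGC, for the CHR core TTTGAA and for the CCAAT box. A stretch lies before the start, reads 5′ to 3′ on the gene's own strand and leaves out exons of coding genes. Capitals mark E2F letters in Mcm6 (chr1:128359706-128359955, minus strand) and Mcm5 (chr8:75109259-75109508, plus strand), where in each gene a pair of matches on opposite strands overlap in one run. They begin 110, 106 and 47 bases before the start in Mcm6 and 153 and 149 before it in Mcm5. Capitals mark TTTGAA in Cdk1 (chr10:69352939-69353162, minus strand) and Ect2 (chr3:27153879-27154128, minus strand), the latter shown because it was the gene with the lowest p among the 50. The match begins 71 bases before the start in Cdk1 and 114 in Ect2, and the window of each holds 1 more TTTGAA outside the printed stretch. Cdk1 was also the 1 mitosis gene whose window held E2F letters, TTTCGCGC, which are left in lower case in its stretch.
Mcm6: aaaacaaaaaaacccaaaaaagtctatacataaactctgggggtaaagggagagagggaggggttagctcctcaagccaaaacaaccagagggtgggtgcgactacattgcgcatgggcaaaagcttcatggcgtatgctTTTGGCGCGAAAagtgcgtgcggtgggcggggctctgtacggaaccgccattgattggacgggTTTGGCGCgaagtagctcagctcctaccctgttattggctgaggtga
Mcm5: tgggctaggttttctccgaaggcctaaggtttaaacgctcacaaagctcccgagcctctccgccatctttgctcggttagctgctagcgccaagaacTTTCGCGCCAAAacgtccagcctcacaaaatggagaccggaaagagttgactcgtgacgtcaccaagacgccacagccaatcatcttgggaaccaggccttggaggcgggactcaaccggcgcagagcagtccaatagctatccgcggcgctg
Cdk1: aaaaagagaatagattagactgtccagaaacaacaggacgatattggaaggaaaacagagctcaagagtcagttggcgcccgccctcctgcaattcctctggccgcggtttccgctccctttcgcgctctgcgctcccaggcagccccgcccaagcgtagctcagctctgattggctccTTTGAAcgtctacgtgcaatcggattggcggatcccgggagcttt
Ect2: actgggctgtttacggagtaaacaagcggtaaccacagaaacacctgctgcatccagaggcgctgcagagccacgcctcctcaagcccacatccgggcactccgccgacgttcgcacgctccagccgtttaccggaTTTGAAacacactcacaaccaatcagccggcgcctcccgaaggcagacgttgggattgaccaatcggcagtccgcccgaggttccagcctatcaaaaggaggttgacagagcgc
E2F letters stood in 9 of 20 replication windows (45%), in 1 of 20 mitosis windows (5%) and in 2.6% of the windows of all 27025 symbols in the table. TTTGAA was held by 3 of 20 replication windows (15%), by 14 of 20 mitosis windows (70%) and by 20.2% of all. CCAAT was found in 12 of 20 (60%), 17 of 20 (85%) and 41.1%. Where a symbol had several windows, a match in any of them was counted. These are matches of letters and were not tested as sites. The windows of E2f1 and Rrm2, described below, held none of the E2F letters or TTTGAA.

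The labels were checked first with the expressed gene. Notch3 had 38.6, 40.6, 70.8 and 42 normalized counts in the Control lines, from Set 1 to Set 4, and 4319, 467, 9215 and 5839 with Notch3IC. The Notch3IC library of Set 2 held the least and was still above every Control library, and edgeR gave a log2 fold change of 6.69 ± 0.88 (SE, adjusted p = 0.0169). Hey1, a direct Notch target, lay between 20.3 and 56.4 normalized counts in Control and between 438 and 10635 in Notch3IC lines, again with Set 2 lowest among the Notch3IC lines.

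None of the 50 genes was called between Notch3IC and Control. A call needed both an adjusted p under 0.1 (edgeR's quasi-likelihood test, Benjamini-Hochberg over the 12430 genes) and at least a 2-fold difference, which are the thresholds of the study. By that rule 3.40% of all genes were higher, 0.740% lower and 4.14% either. Without the fold limit, 1 of the 50 passed, Ect2, which was lower, against 6.69% of all genes in either direction and 1.69% lower. At an unadjusted p under 0.05 it was also 1 of 50, against 18.4% of all genes. DESeq2 with both thresholds called 0 of the 50 as well, where the largest log2 fold change among them was 0.45 in size.

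Fold changes of the 50 genes were small. They ran from -0.43 (Rrm2) to 0.31 (E2f1) on the log2 scale. The median was -0.07 over the replication genes and -0.00 over the mitosis genes, beside -0.01 over all genes tested. In size, without sign, the medians were 0.11, 0.07 and 0.18. All 50 of the 95% intervals lay within 1 of zero on both sides, as did 73.5% of those of all genes, so a 2-fold difference was outside the interval of each. For 39 of 50, 18 replication and 21 mitosis genes, the interval lay within 0.5 of zero, against 40.5% of all genes. These comparisons with all genes were not matched for level. The lowest mean was 558 normalized counts among the 50 and 6.27 among all genes, and the median SE was 0.13 and 0.17. The part of expression level in the narrower intervals and smaller sizes was not tested. The widest interval was that of Mcm7, from -0.86 to 0.58. RNA was measured in bulk, so fewer cycling cells and less RNA per cycling cell cannot be told apart.

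**Figure D1:**
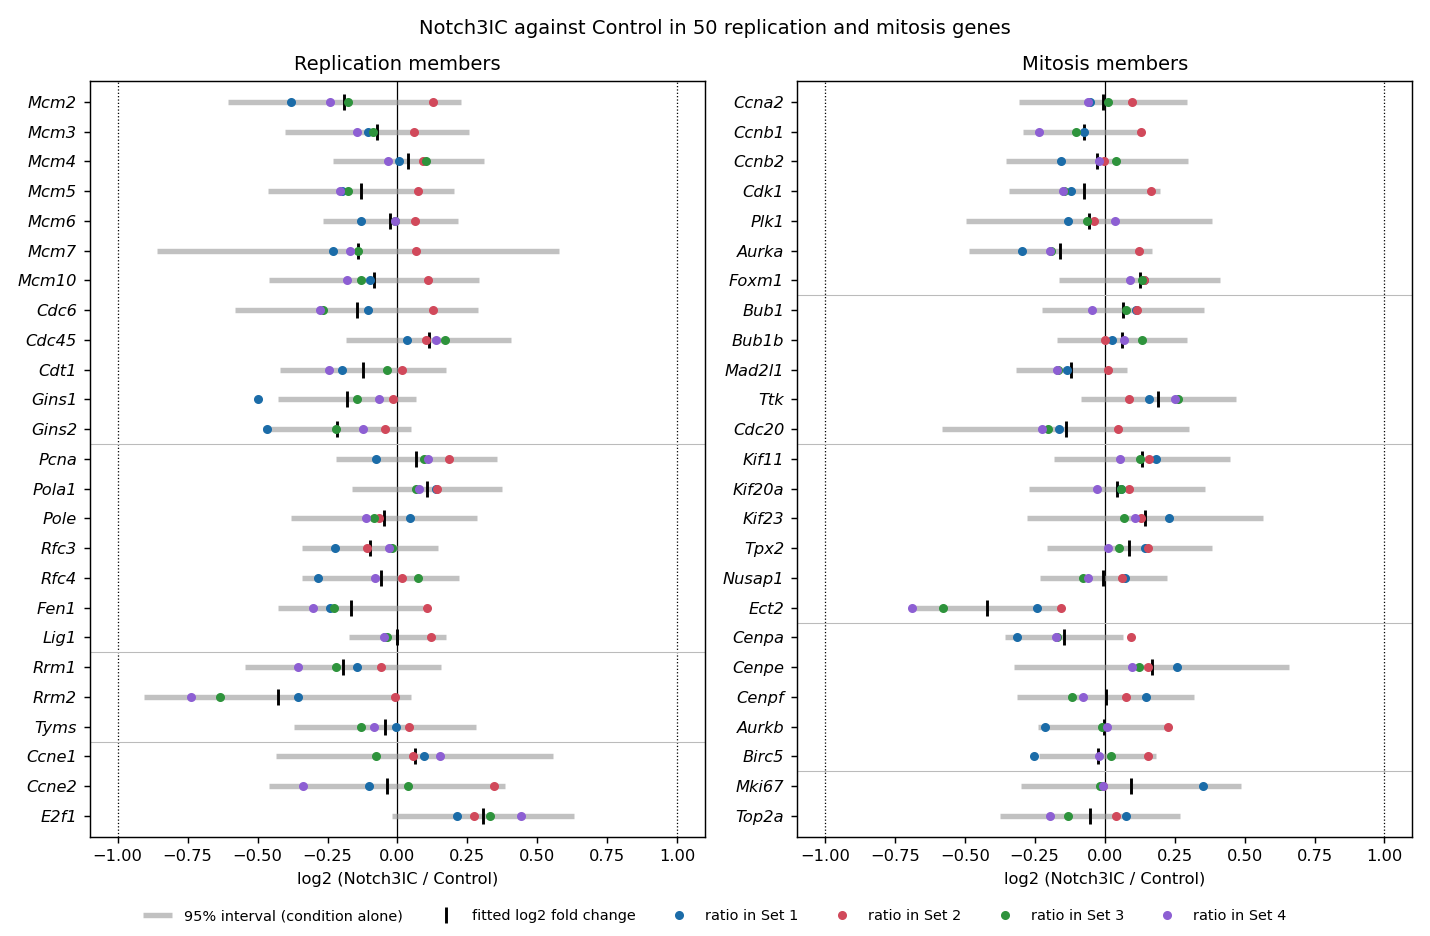
Log2 ratio of Notch3IC to Control for the 25 replication (left) and 25 mitosis genes (right). Grey bars are 95% intervals of edgeR's fit with condition alone (4 lines per condition), black ticks the fitted log2 fold change, coloured points the ratio within each set, and dotted lines mark a 2-fold difference. All 50 intervals stay inside the dotted lines, and the bars of all genes but Ect2 cross zero.

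The fit that kept the matched set as a block, which removes what the lines of a set share, gave more precise values. Its median SE over the 50 genes was 0.07 on the log2 scale, against 0.13 without the block. Unless the block is named, SE, intervals and adjusted p come from a fit without it and so include the spread between sets. With the block and no fold limit 4 of the 50 passed an adjusted p under 0.1, with E2f1 and Ttk higher and Rrm2 and Ect2 lower, beside 14.9% of all genes higher, 12.1% lower and 27.1% in either direction. With the block and the fold limit it was 0 of 50, against 7.72% of all genes. The largest log2 fold change of the 50 in that fit was 0.44 in size, under the limit.

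Helicase genes had mostly negative log2 fold changes close to zero, and none passed the test. Of the 12 genes that load or activate the helicase, 10 had a negative and 2 a positive log2 fold change, with a median of -0.13. From here on, values are normalized counts (counts scaled to a common library size) in the order of Sets 1 to 4. In Control lines Gins2 had 1141, 1032, 966 and 870.0 normalized counts, and in Notch3IC lines 826, 1000.2, 829.9 and 798. Control lines held 701, 564, 631 and 651 normalized counts of Gins1, and Notch3IC lines 496, 558, 571 and 621. Both encode subunits of the GINS complex, and both were lower in Notch3IC in 4 of 4 sets, most in Set 1 (log2 ratios -0.47 and -0.50) and least in Set 2 (-0.05 and -0.02). The fitted log2 fold changes were -0.22 ± 0.12 (SE, adjusted p = 0.368) for Gins2 and -0.18 ± 0.11 (SE, adjusted p = 0.427) for Gins1, and the conditions overlapped in each. Exons of Gins2 overlap those of other genes over 67.3% of their bases in GENCODE M21 (GRCm38), and whether the counting used strand is not stated, so its reads cannot be told apart from its neighbours'.

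The 6 subunits of the MCM2-7 ring ran from -0.19 (Mcm2) to 0.04 (Mcm4) on the log2 scale. Normalized counts of Mcm2 came to 11597, 6717, 7879.5 and 7727 in Control lines, against 8904, 7327, 6977 and 6539 in Notch3IC lines. Mcm2 was lower in Sets 1, 3 and 4 and higher in Set 2, with a fitted log2 fold change of -0.19 ± 0.18 (SE, adjusted p = 0.647). Mcm7 reached 7059, 3233, 3541 and 3438 normalized counts in Control lines and 6015, 3387, 3208 and 3056 in Notch3IC lines. Mcm7, described after its values were seen, was high in both lines of Set 1 and close together in the other 6 libraries. Cdc45, a partner of the active helicase, was the helicase gene with the largest positive value and was higher in 4 of 4 sets (0.04, 0.10, 0.17 and 0.14 on the log2 scale), with a fitted log2 fold change of 0.11 ± 0.13 (SE, adjusted p = 0.712).

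At the fork, the 7 genes for DNA synthesis and lagging-strand work split into 2 positive and 5 negative log2 fold changes, with a median of -0.05. Fen1 had 6508, 5024, 5522 and 5513 normalized counts in the Control lines and 5504, 5401, 4718 and 4475 in the Notch3IC lines. Fen1, the flap endonuclease that trims Okazaki fragments, was lower in Sets 1, 3 and 4 and higher in Set 2 (fitted log2 fold change -0.17, SE 0.11, adjusted p = 0.49). Other genes cover 84.2% of its exon bases in GENCODE M21, with the same limit on its reads. In Control lines Rfc3 had 1290.2, 996, 1126 and 1121 normalized counts, and in Notch3IC lines 1104, 924, 1111 and 1098. Rfc3 is a subunit of the clamp loader, and its Notch3IC line of Set 2 stood below every other library (fitted log2 fold change -0.10, SE 0.11, adjusted p = 0.698). Control lines held 3150.3, 2387, 2782 and 2694 normalized counts of Pola1, and Notch3IC lines 3464, 2636, 2909.8 and 2843. Pola1, the catalytic subunit of the polymerase that lays down primers, was higher in 4 of 4 sets by 0.06 to 0.14 on the log2 scale (fitted log2 fold change 0.11, SE 0.12, adjusted p = 0.702). Normalized counts of Pcna came to 3824, 2823, 2936 and 2735 in Control lines, against 3624, 3204, 3133 and 2948 in Notch3IC lines. Pcna, the sliding clamp, was lower in Set 1 and higher in Sets 2, 3 and 4, with a fitted log2 fold change of 0.07 ± 0.13 (SE, adjusted p = 0.836). Lig1, the ligase that seals the fragments, was among the most even of the 50, at -0.17 to 0.17 for the interval of its log2 fold change.

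Nucleotide supply held the replication gene with the lowest value. Rrm2 reached 14800.0, 8813, 11219 and 11404 normalized counts in Control lines and 11559, 8763, 7235 and 6829.8 in Notch3IC lines. Rrm2, the regulated subunit of ribonucleotide reductase (chr12:24708241-24714146 in GRCm38), was lower in Notch3IC in 4 of 4 sets, with log2 ratios of -0.36, -0.01, -0.63 and -0.74, the Set 2 lines differing least. Its fitted log2 fold change was -0.43 ± 0.21 (SE, adjusted p = 0.323), and with the block -0.44 ± 0.13 (SE, adjusted p = 0.071). The Control line of Set 2 lay among the Notch3IC values, and the Notch3IC line of Set 1 among the Control values. Rrm1 had 18744, 12977, 16112 and 15492 normalized counts in the Control lines and 16952, 12452, 13836 and 12096 in the Notch3IC lines. Rrm1, the large subunit of that enzyme, was lower in 4 of 4 sets (fitted log2 fold change -0.19, SE 0.15, adjusted p = 0.56). The difference was smaller than that of Rrm2 except in Set 2, where the log2 ratio of Rrm1 was -0.06. In Control lines Tyms had 2396, 1675, 2086 and 1902 normalized counts, and in Notch3IC lines 2386, 1724, 1908 and 1793. Thymidylate synthase, the product of Tyms, makes the thymidine precursor, and its fitted log2 fold change was -0.05 ± 0.14 (SE, adjusted p = 0.911).

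Among the G1/S regulators, E2f1 stood highest of all 50 genes by fold change. Control lines held 1563, 1147, 1208 and 1058 normalized counts of E2f1, and Notch3IC lines 1811, 1385, 1521 and 1436. E2f1, an activating E2F factor and itself an E2F target (chr2:154559407-154569892 in GRCm38), was higher in Notch3IC in 4 of 4 sets, with log2 ratios of 0.21, 0.27, 0.33 and 0.44. Across sets the conditions overlapped, since the Control line of Set 1 exceeded the Notch3IC lines of Sets 2, 3 and 4. The fitted log2 fold change was 0.31 ± 0.14 (SE, adjusted p = 0.299), and with the block 0.31 ± 0.06 (SE, adjusted p = 0.0351). Without the block its adjusted p was under 0.1 when the Control library of Set 1 (0.0901) or the whole of Set 1 (0.0878) was left out. In those fits 8.01% and 7.72% of all genes passed. Normalized counts of Ccne1 came to 1397, 845, 975 and 889.8 in Control lines, against 1493, 877, 924 and 989.6 in Notch3IC lines. Ccne2 reached 711, 401, 522 and 625 normalized counts in Control lines and 662, 509.6, 536 and 495 in Notch3IC lines. These genes encode the E cyclins that drive entry into S phase, and the sets disagreed in sign for both. Ccne1 had a fitted log2 fold change of 0.06 ± 0.22 (SE, adjusted p = 0.923), and Ccne2 of -0.04 ± 0.18 (SE, adjusted p = 0.947).

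**Figure D2:**
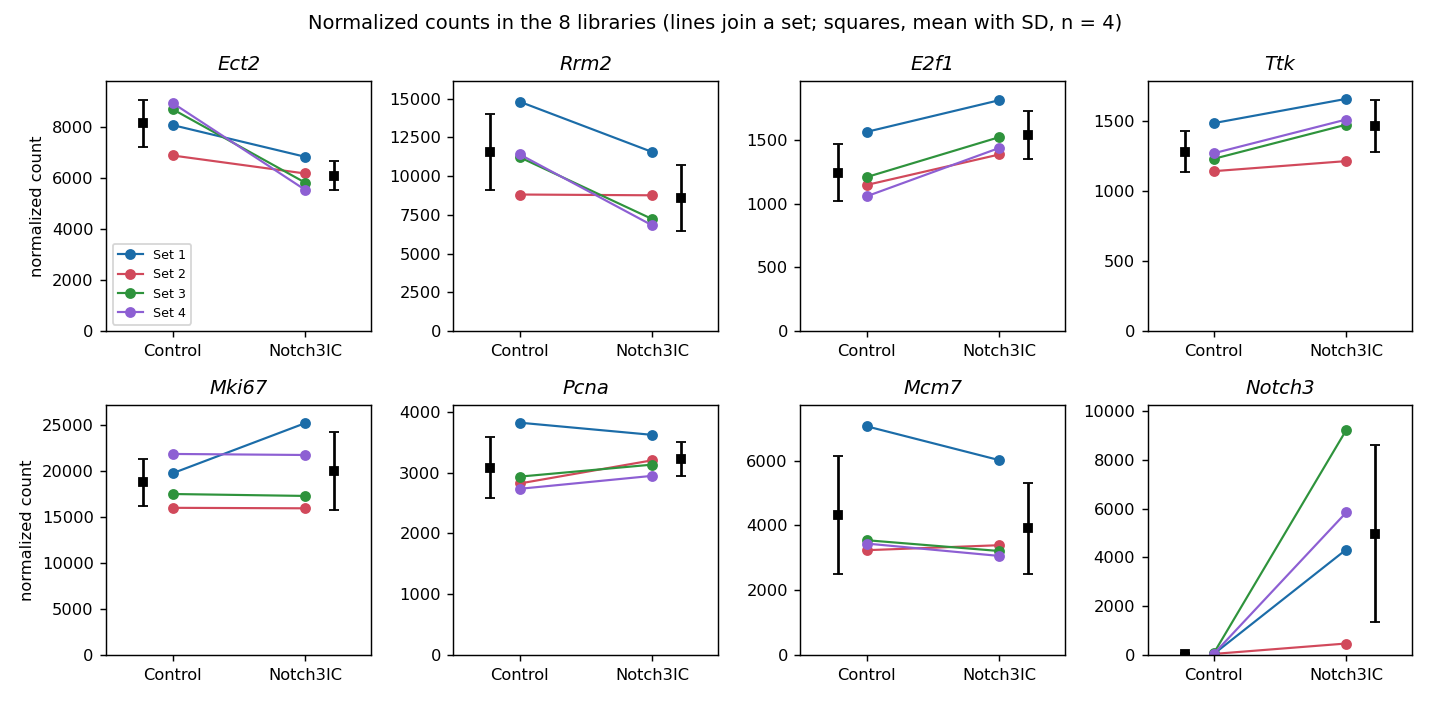
Normalized counts of 7 of the genes and of Notch3 in the 8 libraries, with a linear axis from 0 in each panel. Coloured lines join the Control and Notch3IC line of a set, and black squares with bars are the mean and SD of the 4 lines of a condition. Ect2 is the panel among the 7 where the 4 lines of each condition do not overlap, and Mcm7 is high in both lines of Set 1.

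Ect2 was the mitosis gene that differed most. Ect2 had 8094, 6899.6, 8717 and 8962 normalized counts in the Control lines and 6849.7, 6193, 5837 and 5556 in the Notch3IC lines. All 4 Notch3IC values lay below all 4 Control values, which among the 50 genes held for Ect2 alone and among all genes tested for 3.75% in this direction (7.08% in the other). Ect2 activates RhoA at the cell equator to start cytokinesis and lies at chr3:27097222-27153878 in GRCm38. It was lower in 4 of 4 sets, by log2 ratios of -0.24 and -0.16 in Sets 1 and 2 and -0.58 and -0.69 in Sets 3 and 4. The fitted log2 fold change was -0.42 ± 0.11 (SE, adjusted p = 0.0926), from a mean of 8168 ± 921 to 6109 ± 559 normalized counts (SD, n = 4). The adjusted p rose past 0.1 without the Control library of Set 1 (0.115), without either library of Set 3 (0.246 and 0.245 for Control and Notch3IC) or of Set 4 (0.257 and 0.272), without the whole of Set 3 (0.565) or Set 4 (0.643), and with no expression filter (0.104). Of all genes, 0.715% and 2.22% passed without the Control and Notch3IC library of Set 3, and 0.996% and 1.57% without those of Set 4. It was 0.00805% without Set 3, 0 without Set 4 and 5.39% with no filter. Without the Control library of Set 1 it was 8.01%, against 6.69% in the main fit. The log2 fold change of Ect2 stayed between -0.50 and -0.33 with any library or set left out.

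Of the 6 spindle and cytokinesis genes, Ect2 and Nusap1 (-0.00) had a negative and the other 4 a positive log2 fold change, with a median of 0.07. In Control lines Kif11 had 12655, 9514, 10055 and 10916 normalized counts, and in Notch3IC lines 14386, 10619, 10967 and 11345. Kif11, the motor that pushes the spindle poles apart, was higher in 4 of 4 sets (fitted log2 fold change 0.13, SE 0.14, adjusted p = 0.675). Control lines held 3513, 2427, 2440.3 and 2662 normalized counts of Kif23, and Notch3IC lines 4125, 2652, 2561 and 2869.9. Kif23, a motor of centralspindlin, the complex that recruits Ect2, was also higher in 4 of 4 sets, with the lines of Set 1 above the rest (fitted log2 fold change 0.14, SE 0.19, adjusted p = 0.745). Tpx2, a spindle assembly factor, was higher in 4 of 4 sets by 0.01 to 0.15 on the log2 scale. Neither Kif11, Kif23 nor Tpx2 passed the test, with or without the block.

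Entry into mitosis was represented by 7 genes, of which 6 had a negative log2 fold change and 1, Foxm1, a positive one. Normalized counts of Aurka came to 4271, 2640.3, 3516 and 3469.7 in Control lines, against 3481, 2873, 3074 and 3029 in Notch3IC lines. Ccnb1 reached 2079, 1659.6, 1993 and 2078 normalized counts in Control lines and 1977, 1817, 1856 and 1767 in Notch3IC lines. Aurka encodes a kinase of the spindle poles and Ccnb1 the cyclin that activates Cdk1, and each was higher in Notch3IC in Set 2 and lower in Sets 1, 3 and 4. Their fitted log2 fold changes were -0.16 ± 0.14 (SE, adjusted p = 0.626) and -0.07 ± 0.10 (SE, adjusted p = 0.743). Foxm1 had 7199, 5353, 6342 and 6279 normalized counts in the Control lines and 7934, 5897, 6957 and 6681 in the Notch3IC lines. Foxm1, the transcription factor that drives many of the other mitosis genes, was higher in 4 of 4 sets by a near constant log2 ratio (0.14, 0.14, 0.13 and 0.09), with a fitted log2 fold change of 0.13 ± 0.13 (SE, adjusted p = 0.664). For Cdk1 itself it was -0.07 ± 0.12 (SE, adjusted p = 0.81).

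Ttk led the 5 genes of the spindle checkpoint and anaphase. In Control lines Ttk had 1481, 1139, 1227 and 1267 normalized counts, and in Notch3IC lines 1654, 1211, 1471 and 1507. Ttk encodes the Mps1 kinase that starts the checkpoint signal, and the Notch3IC line held more in 4 of 4 sets while the conditions overlapped. Its fitted log2 fold change was 0.19 ± 0.12 (SE, adjusted p = 0.457), and with the block 0.19 ± 0.06 (SE, adjusted p = 0.0833). Control lines held 3541, 3029, 3661 and 3642 normalized counts of Mad2l1, and Notch3IC lines 3226, 3056, 3263 and 3234. Normalized counts of Cdc20 came to 5852, 3616, 4064 and 3930.1 in Control lines, against 5226, 3736, 3529 and 3364 in Notch3IC lines. Mad2l1 encodes the checkpoint protein Mad2, Cdc20 the activator of the anaphase-promoting complex that Mad2 blocks, and both were lower in Sets 1, 3 and 4 and slightly higher in Set 2. Their fitted log2 fold changes were -0.12 ± 0.09 (SE, adjusted p = 0.524) and -0.14 ± 0.19 (SE, adjusted p = 0.768). Bub1 and Bub1b, whose products act in the checkpoint at the kinetochore, had fitted log2 fold changes of 0.06 ± 0.13 (SE, adjusted p = 0.846) and 0.06 ± 0.10 (SE, adjusted p = 0.815).

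Centromere and passenger genes had fitted values of either sign. Cenpa reached 3727, 3118, 3783 and 3782 normalized counts in Control lines and 2998, 3329, 3364 and 3349 in Notch3IC lines. Cenpa, the centromeric histone, was lower in Sets 1, 3 and 4 and higher in Set 2 (fitted log2 fold change -0.14, SE 0.09, adjusted p = 0.462). Cenpe had 6997, 4224, 4785 and 5599 normalized counts in the Control lines and 8363, 4707, 5204 and 5989.7 in the Notch3IC lines. Cenpe, a kinetochore motor, was higher in 4 of 4 sets, and the lines of Set 1 were above the rest (fitted log2 fold change 0.17, SE 0.22, adjusted p = 0.746). In Control lines Birc5 had 3992, 3267, 3821 and 3777 normalized counts, and in Notch3IC lines 3350.0, 3639, 3883 and 3727. Birc5 encodes survivin, a subunit of the chromosomal passenger complex with Aurkb, and its sets split evenly in sign (fitted log2 fold change -0.03, SE 0.09, adjusted p = 0.924). Aurkb, the kinase of that complex, had a fitted log2 fold change of -0.00 ± 0.10 (SE, adjusted p = 0.994).

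The usual proliferation markers had fitted values near zero. Control lines held 19748, 15993, 17495 and 21852 normalized counts of Mki67, and Notch3IC lines 25193, 15940.5, 17287 and 21738. Mki67 coats mitotic chromosomes, and it was higher in Notch3IC in Set 1 (log2 ratio 0.35) and nearly equal in Sets 2, 3 and 4 (-0.00, -0.02 and -0.01). Its fitted log2 fold change was 0.09 ± 0.17 (SE, adjusted p = 0.833), with a 95% interval from -0.30 to 0.49, and that of Pcna had an interval from -0.22 to 0.36. Normalized counts of Top2a came to 29829.9, 22616, 28306 and 30494 in Control lines, against 31420.5, 23283, 25852 and 26635 in Notch3IC lines. Top2a, the topoisomerase that untangles sister chromosomes, had a fitted log2 fold change of -0.05 ± 0.14 (SE, adjusted p = 0.892).

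Per exon length the 50 genes covered a wide range. Top2a was the most abundant mitosis gene with a mean level of 3086 normalized counts per kilobase of GENCODE exons in Control and 2973 in Notch3IC, and Ttk the least abundant with 260.0 and 297. Among the replication genes the level per kilobase was highest for Rrm2 (4171 in Control, 3102 in Notch3IC) and lowest for Ccne2 (162 and 158).

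**Figure D3:**
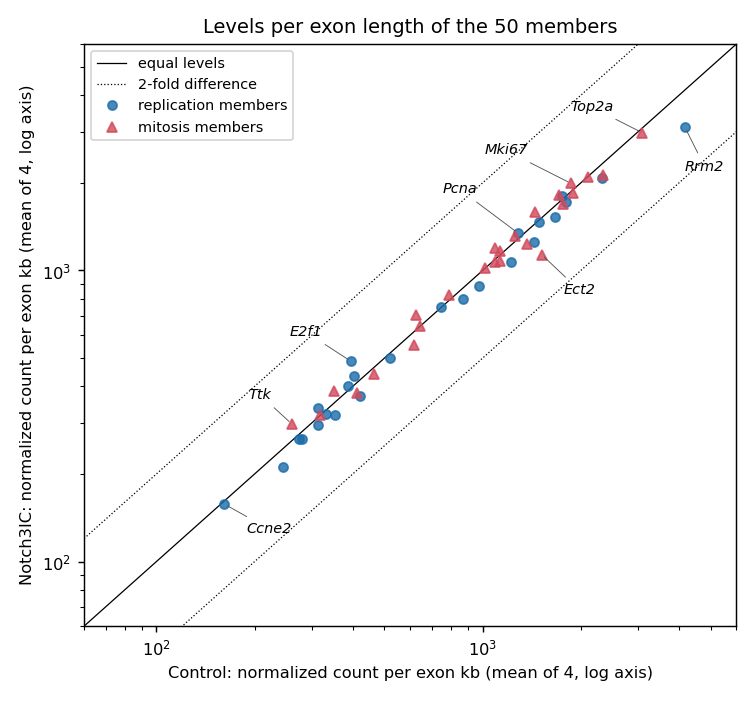
Mean normalized count per kilobase of exon in Control (horizontal) and Notch3IC lines (vertical), both axes logarithmic, one point per gene. Points follow the line of equal levels, inside the dotted lines of a 2-fold difference, and Rrm2, Ect2 and E2f1 lie farthest from it.

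Differences between sets passed the test in more of the 50 genes than differences between conditions. In a fit with condition and set, the set term passed an adjusted p under 0.1 for 32 of the 50 genes, 16 in each group, beside 36.1% of all genes tested. Set 1 held the highest Control library for 23 of 25 replication and 15 of 25 mitosis genes, and the highest Notch3IC library for 19 and 17. Set 2 held the lowest Control library for 20 of 25 and 24 of 25, and the lowest Notch3IC library for 12 and 17. Highest and lowest libraries were not counted over all genes, so whether this is particular to the 50 was not tested. As a share of all counts, the 25 replication genes took 0.503, 0.374, 0.438 and 0.433% in the Control lines, in set order, against 0.431, 0.387, 0.384 and 0.367% in the Notch3IC lines. The 25 mitosis genes took 0.693, 0.574, 0.688 and 0.732% and 0.695, 0.601, 0.645 and 0.676%. Both conditions overlapped in each group of genes.

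**Figure D4:**
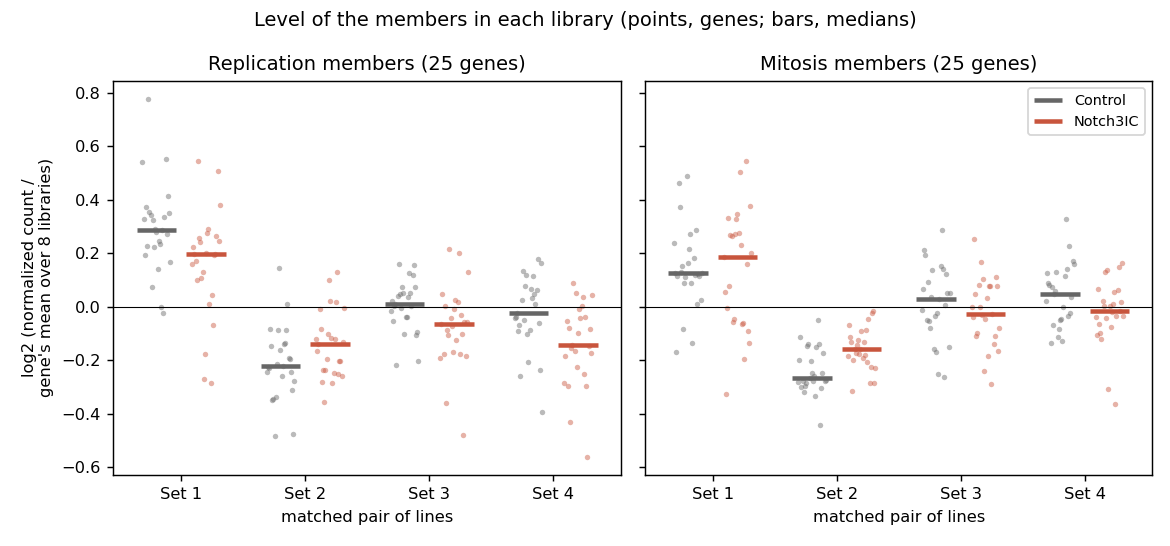
Level of each replication (left) and mitosis gene (right) in each library, as log2 of its normalized count over its mean across the 8 libraries. Points are genes and bars their medians, grey for Control and red for Notch3IC. Both lines of Set 1 are high and both lines of Set 2 low. The step from Control to Notch3IC within a set is smaller than the steps between Sets 1 and 2. In the replication genes the Notch3IC line of Set 4 (median -0.143) is as low as that of Set 2 (-0.137).

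Within sets, the replication genes had median log2 ratios of -0.11, 0.07, -0.08 and -0.11 in Sets 1 to 4, and the mitosis genes 0.03, 0.09, -0.01 and -0.03. Most of the 50 genes were higher in the Notch3IC line in Set 2, 40 of 50. In Sets 1, 3 and 4 it was 19, 19 and 14. The Control line of Set 2 was the lowest Control line for 20 of 25 replication and 24 of 25 mitosis genes. Its Notch3IC line was the lowest Notch3IC line for 12 and 17. Of all 12430 genes, 6487 were higher in Set 2 and 6021, 6110 and 6240 in the others. With 1 library per condition in a set there is no test of a single set. Of the 50, 10 were higher in Notch3IC in 4 of 4 sets and 6 lower, beside 21.0% and 19.4% of all genes. The 10 were Cdc45, E2f1, Pola1, Ttk, Kif23, Cenpe, Foxm1, Bub1b, Kif11 and Tpx2, and the 6 were Gins1, Gins2, Rfc3, Rrm1, Rrm2 and Ect2. Leaving out the Control library of Set 1 turned the median log2 fold change of the replication genes from -0.07 to 0.03.

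The number of genes that passed with the block changed when any set was left out. It was 4 of the 50 with all sets. Without Set 2, and with the block but no fold limit, 17 of the 50 passed an adjusted p under 0.1, 3 higher (Cenpe, E2f1 and Ttk) and 14 lower, among them Rrm2, Ect2, Mcm2, Mcm5 and Cdk1. The same fit passed 23.4% of all genes higher and 21.8% lower. Without Set 1, Set 3 or Set 4 it passed 0 of the 50, with 0.392%, 0.483% and 1.28% of all genes higher and 0.280%, 0.217% and 0.541% lower.

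Further genes of the same pathways were not called either. Of 40 other replication genes, all tested, 0 were called, 11 had a positive and 29 a negative log2 fold change, and the median was -0.05. Of all 12430 genes 4.14% were called, and 6020 were positive and 6410 negative. Pola2 reached 3993, 2986, 3912 and 4124 normalized counts in Control lines and 2939, 2989, 2793 and 2977 in Notch3IC lines. Pola2 encodes the second subunit of the priming polymerase, and the difference rested on Sets 1, 3 and 4 (fitted log2 fold change -0.36, SE 0.11, adjusted p = 0.127). Rnaseh2a had 7207, 4035, 4998 and 4582 normalized counts in the Control lines and 4387, 3876, 3505 and 3187 in the Notch3IC lines. Rnaseh2a, which removes ribonucleotides from DNA, had a fitted log2 fold change of -0.48 ± 0.19 (SE, adjusted p = 0.221), and its Control line of Set 1 was the highest library. In Control lines Gmnn had 1448, 1157, 1572 and 1489.6 normalized counts, and in Notch3IC lines 1165, 1227, 1317 and 1224. Gmnn, the geminin that restrains Cdt1, had a fitted log2 fold change of -0.20 ± 0.11 (SE, adjusted p = 0.37). With the block and no fold limit, Pola2, Rnaseh2a and Rpa1 were lower and Tk1 higher at an adjusted p under 0.1, which is 4 of 40 against 27.1% of all genes.

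Of 40 other mitosis genes, all tested, 0 were called, 21 were positive and 19 negative, and the median was 0.00 on the log2 scale, beside 4.14% of all genes called. Control lines held 9723, 7720.4, 11178 and 11647 normalized counts of Anln, and Notch3IC lines 8965, 7524, 7607 and 7884. Anln encodes anillin, a scaffold of the cytokinetic ring that binds RhoA and Ect2, and it was lower in 4 of 4 sets, with log2 ratios of -0.56 and -0.56 in Sets 3 and 4 (fitted log2 fold change -0.33, SE 0.14, adjusted p = 0.258). Normalized counts of Kif15 came to 1648, 1519, 1695 and 1699.6 in Control lines, against 1972, 1765, 1805 and 1831 in Notch3IC lines. Kif15, a spindle motor that can act beside Kif11, was the 1 gene of this list whose conditions did not overlap, against 10.8% of all genes (fitted log2 fold change 0.17, SE 0.08, adjusted p = 0.296). Nuf2 reached 2271, 1877, 2288 and 2226 normalized counts in Control lines and 2617, 2170.3, 2418 and 2457 in Notch3IC lines. Nuf2, a kinetochore subunit that binds microtubules, was higher in 4 of 4 sets (fitted log2 fold change 0.16, SE 0.10, adjusted p = 0.441) and the 1 gene of this list under an adjusted p of 0.1 with the block (0.0961), which 27.1% of all genes passed.

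The regulators upstream of both groups were followed in a list of 17 E2F and DREAM genes, all tested, with 0 called, 9 positive and 8 negative, and a median log2 fold change of 0.00, beside 4.14% of all genes called. E2f2 had 547, 613, 782 and 845 normalized counts in the Control lines and 443, 524, 530.3 and 538 in the Notch3IC lines. E2f2, an activating E2F factor like E2f1, was lower in Notch3IC in 4 of 4 sets and its conditions did not overlap (fitted log2 fold change -0.45, SE 0.15, adjusted p = 0.159), the opposite sign to E2f1. In Control lines Rb1 had 537, 626, 672 and 705 normalized counts, and in Notch3IC lines 749, 647, 885 and 887. Rb1 encodes the retinoblastoma protein and was higher in 4 of 4 sets (fitted log2 fold change 0.32, SE 0.14, adjusted p = 0.256). Control lines held 207, 208, 276 and 254 normalized counts of Lin52, and Notch3IC lines 179, 201, 192 and 191. Lin52, a core subunit of DREAM, was lower in 4 of 4 sets without overlap (fitted log2 fold change -0.31, SE 0.14, adjusted p = 0.299). With the block and no fold limit, Rb1 was higher (adjusted p = 0.0691), and E2f2 (0.0422) and Tfdp2, an E2F partner (0.0333), were lower. Of the 17 genes, 2 thus did not overlap, against 10.8% of all genes, and 3 passed with the block, against 27.1%.

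Markers of the labelled tissue and of other cell types were read in the same libraries. Of 9 markers of ovarian surface epithelium, Wt1 and Upk3b were the most abundant, and Epcam (at most 9.51 normalized counts) and Krt7 (at most 44) were too low to be tested. Normalized counts of Msln came to 1190.1, 1581, 2998 and 3623 in Control lines, against 82.7, 779, 313 and 381 in Notch3IC lines. Mesothelin, the product of Msln, was the 1 of these 9 called in the fit with condition alone (4.14% of all genes), and it fell by 2.60 on the log2 scale (SE 0.63, adjusted p = 0.0625). Krt19, Upk3b, Wt1 and Krt8 had log2 fold changes of -2.12, -1.72, -0.80 and -0.74 (adjusted p = 0.124, 0.22, 0.283 and 0.109), and Krt18 and Cdh1 of -0.43 and -0.48 (adjusted p = 0.66 and 0.764). With the block, Krt19 (-2.10, adjusted p = 0.0288) and Upk3b (-1.98, adjusted p = 0.0319) were called lower as well, against 7.72% of all genes called with the block, and Wt1, Krt8 and Krt18 passed an adjusted p under 0.1 (0.0275, 0.0543 and 0.0907) but not the fold limit. The part of this difference in the values of the replication and mitosis genes was not tested. The leukocyte markers Ptprc, Itgam and Cd3e and the endothelial markers Cdh5 and Tek stood at or near 0 in every library. Of the rest, Cd68 was the most abundant with at most 119 normalized counts, and Pecam1 and Kdr stayed at or under 25.3. Leukocyte markers went both ways. Cd68 had log2 ratios of -0.45, -0.28, -0.42 and -0.45 in Sets 1 to 4 and did not pass (fitted value -0.40, SE 0.35, adjusted p = 0.61). Csf1r was called higher from a level of at most 11.9 in Control and 40.2 in Notch3IC (fitted value 1.52 on the log2 scale, adjusted p = 0.0719).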

How the data were processed

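RNA of 4 Control and 4 Notch3IC lines was sequenced by the study as 100-base single-end reads after poly-A selection. The authors aligned them with TopHat and counted them with Cufflinks, and the submitters' processing notes also name DESeq and the build mm9, with no versions. They deposited whole-number counts per gene symbol, 1 table per library, without normalization. Whether counting used strand is not given in the sources used here.

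Totals ran from 15524262 to 28208072 counts, and the biological coefficient of variation was 26.3%, or 14.1% with the set as a block. Notch3IC was compared with Control using edgeR 4.0.16 in R 4.3.3 (TMM, filterByExpr by condition, quasi-likelihood F test), with Benjamini-Hochberg adjustment over all 12430 genes tested and condition as the only term, as the study names no set term. The fit was also run on simulated data, and the outcome is not reported here. Intervals came from the standard error and the total degrees of freedom, and ratios within a set used a pseudocount of 0.5. By the study's description a set is a matched pair of lines. As a check, the deviation of each library from its condition's mean was correlated over genes with that of its partner, which gave 0.79 for Set 1, 0.41 for Set 2, 0.57 for Set 3 and 0.43 for Set 4, while pairs taken from different sets gave -0.51 to 0.40.

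The 50 genes and the other lists were chosen with earlier results of these data known. Per-library values were given for those of the 50 genes with an adjusted p under 0.1 with or without the block, for the 3 lowest p-values in each role or list, the most and least abundant gene per exon length, Mki67, Pcna and Notch3. Mcm7 and Msln were given them after their values were seen. Alternatives were DESeq2 1.42.0, other normalizations, filters and thresholds, the block, and leaving out each library or set. The set term and the block with each set left out were added after the data were seen. Positions and exon lengths came from GENCODE M21 (GRCm38) and promoter sequences from RefSeq (GRCm38.p6), which are not the build of the counts. Figures were drawn with Python 3.11.15 and Matplotlib 3.10.9. One listed marker is not reported here.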

Additional observations from a re-analysis of the deposited data

Results flagged for a closer look

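In 39 named genes the 4 libraries of a condition were compared for 1 that stood apart, with a gap to its nearest neighbour of most of the range (Dixon's 95% critical value). It was found in 7 of 78 groups, and chance gives about 1 in 20, or 3.9 groups. Of the 7, 4 fell on Set 2, 2 on Set 1 and 1 on Set 3.

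Gins2 was high in the Notch3IC line of Set 2, at 1000.2 normalized counts against 798 to 829.9 in the other 3 lines (gap over range 0.842). Rfc3 was low in the same library, at 924 against 1098 to 1111 (0.928). Cenpa was low in the Control line of Set 2, at 3118 against 3727 to 3783 (0.915), and in the Notch3IC line of Set 1, at 2998 against 3329 to 3364 (0.904). Nuf2 was low in the Control line of Set 2, at 1877 against 2226 to 2288 (0.848). E2f2 was low in the Notch3IC line of Set 1, at 443 against 524 to 538 (0.857). Notch3 was high in the Control line of Set 3, at 70.8 against 38.6 to 42.0 (0.896).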

How the results depend on the processing

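Genes called higher were 423 as reported, 708 with DESeq2, 645 with the replicate block and 1858 with the block and no fold limit. Genes called lower were 92, and 192 with DESeq2, 315 with the block, 48 at an adjusted p under 0.05, 210 with no fold limit and 1509 with the block and no fold limit. Leaving out a library or a set gave 0 to 702 higher and 0 to 305 lower, with 0 of either without Set 4. Replication genes called were 0 as reported and 2 with the block and no fold limit, and 0 to 9 with a set left out besides, the 9 without Set 2. Mitosis genes called were 0, and 1 with no fold limit, 2 with the block and no fold limit, and 0 to 8 with a set left out besides. Every other alternative called 0 of the 50, and the block changed no other call of a gene among them. The largest log2 fold change of the 50 under any alternative was 0.60 in size. An alternative that kept the fold limit of 1 could therefore call none of them.

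Leaving out single libraries or sets moved the median log2 fold change of the replication genes between -0.16 and 0.032 and that of the mitosis genes between -0.079 and 0.039. Among the genes with per-library values it changed the sign of the fitted log2 fold change of Mcm7 (-0.42 to 0.20), Tyms (-0.15 to 0.047), Ccne1 (-0.14 to 0.24), Ccne2 (-0.17 to 0.090), Cdc20 (-0.30 to 0.033), Kif23 (-0.030 to 0.28), Cenpe (-0.022 to 0.32), Birc5 (-0.084 to 0.045), Mki67 (-0.032 to 0.19) and Top2a (-0.14 to 0.0064). Notch3, Hey1 and Heyl kept their direction, with an adjusted p of 0.215 without Set 3 and 0.221 without Set 4. Of 740 values of 39 named genes under the alternatives, 716 kept direction and side of the threshold. Those of the 50 among the 39 stayed under the fold limit in every fit, so their side could not change. Under the other normalizations the median over all genes lay between -0.04 and -0.01 on the log2 scale. The causes were not tested. No library had fewer than 336 counts for any of the 50 genes, and the 4 lines per condition limit the precision.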
